A study of Mus musculus with 6 samples.

Results

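Transcripts of 10 genes of glucose uptake and glycolysis were examined in naïve CD4 T cells of control and Rnmt cKO mice. Rnmt encodes the methyltransferase that completes the 5′ cap of mRNA. The 10 genes are the glucose transporter genes Slc2a1 and Slc2a3 and the enzyme genes Hk1, Hk2, Pfkl, Aldoa, Pgk1, Eno1, Pkm and Ldha. They were chosen by symbol and not by a measured value, though earlier results of these data were known. They are 10 of the 46983 genes counted in these libraries. The comparison table deposited by the authors lists 9 of them, and Hk2 was matched by its Ensembl identifier. All 10 passed the filter on low counts, as did 12336 genes in all. To pass, a gene needed more than 1 CPM in 3 or more libraries, where CPM are sense-strand fragment counts put on a shared library size.

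There were 6 libraries of rRNA-depleted total RNA, 3 control and 3 Rnmt cKO, all labelled as male, with no ages in the labels. Control animals were Rnmt fl/fl CD4cre -, carrying loxP sites around Rnmt exon 3 but no Cre, and Rnmt cKO animals were Rnmt fl/fl CD4cre +. The Cre transgene, Tg(Cd4-cre)1Cwi, deletes from the double positive stage of thymic development, so the cells matured after deletion. Effects of the transgene itself cannot be told apart from those of the deletion, since every cKO animal and no control carried it. Both groups were kept on a C57B6/J background. The cells were sorted from lymph nodes as TCRb+, CD4+, CD62L+, CD44- and DAPI- cells. Nothing in the labels ties a library to an animal, while a figure legend of the authors counts 3 control and 3 Rnmt cKO mice. P-values measure the spread between these samples, which may in part be technical.

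Glycolysis splits glucose to pyruvate in the cytosol. Glucose enters through SLC2A transporters, is trapped by hexokinase, is committed by phosphofructokinase, is cleaved by aldolase, and yields ATP at phosphoglycerate kinase and pyruvate kinase. Lactate dehydrogenase converts pyruvate to lactate and renews the NAD+ that the pathway needs. Resting naïve T cells take up little glucose and rely on mitochondria, and activation through the T cell receptor raises transporters and enzymes together, with MYC and HIF-1 among the transcription factors that bind their promoters.

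Sense counts in genes ranged from 8873413 to 11277764 per library. All 11 CD4 T cell markers examined passed the filter, with Cd4 at 669 ± 16.7 CPM (SD, n = 3) in controls. The targeted gene Rnmt, counted over its whole length and not over the deleted exon alone, had counts of 438, 588 and 524 in controls 1 to 3, against 397, 444 and 297 in Rnmt cKO 1 to 3 (log2 fold change -0.67 ± 0.20 (SE), adjusted p = 3.50e-04). The share of uniquely mapped fragments assigned to no gene was 36.1, 39.7 and 46.1% in controls 1 to 3, against 47.9, 46.5 and 31.8% in Rnmt cKO 1 to 3. Rnmt cKO 3 thus stood apart from the other 2 libraries of its group, and values without it are given where they change a result. Markers of other cells were low. The 7 B cell markers summed to 41.0 to 48.9 CPM in the controls and 53.7 to 91.6 CPM in the Rnmt cKO libraries, with 4 called higher. The 7 myeloid markers summed to 4.89 to 5.96 CPM in the controls and 12.8 to 35.1 CPM in the Rnmt cKO libraries. Of these, 3 of 4 tested were called higher, and Csf1r, Cd14 and Itgax were below the filter. Among those called, S100a8 and S100a9 passed the filter only through the Rnmt cKO libraries, where they are high. The 6 erythroid markers summed to 4.86 to 7.52 CPM in the controls and 1.16 to 1.35 CPM in the Rnmt cKO libraries. Both tested genes were lower, and both passed the filter only through the controls. The 2 CD8 T cell markers, both lower, summed to 21.7 to 23.3 CPM in the controls and 13.5 to 17.3 CPM in the Rnmt cKO libraries. The 12 proliferation markers were all called higher and summed to 73.8 to 89.1 CPM in the controls and 334 to 371 CPM in the Rnmt cKO libraries. Among them, Aurkb, Birc5, Bub1, Ccnb2 and Cdk1 would not have passed the filter on the controls alone. Of 5 tested activation markers, Il2ra and Cd44 were lower and Tnfrsf4 and Tnfrsf9 higher. Of all tested genes, 6.84% were called lower and 8.0% higher. The part of these other cells and of cycling cells in the results below was not tested.

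Expression of 2 of the 10 genes was lower in Rnmt cKO cells and that of none was higher. Aldoa fell to 0.735 and Slc2a3 to 0.808 of the control level. These were the calls of edgeR's exact test at a Benjamini-Hochberg adjusted p under 0.05, which called 6.84% of the 12336 tested genes lower and 8.0% higher. With unadjusted p below 0.05 the same 2 genes were lower and none higher, and edgeR's quasi-likelihood test and DESeq2 each called 1 lower, Aldoa, and none higher. The median log2 fold change (Rnmt cKO over control) of the 10 genes was -0.03, beside 0.01 over all tested genes, with 6 genes below 0 and 4 above. All 3 cKO values lay below all 3 control values for the 2 called genes, as they did for 14.9% of tested genes, and above them for Hk1, as for 16.6% of tested genes. The groups overlapped in the other 7. In 8 of the 10 genes Rnmt cKO 3 had the highest value of its group, and in 6 (Hk1, Pfkl, Pgk1, Eno1, Pkm and Ldha) the highest of all libraries. Without Rnmt cKO 3 the exact test called 3 of the 10 genes lower (Aldoa, Slc2a3 and Pgk1) and none higher, and 10.5% of 12181 tested genes lower. In this fit the median of the 10 genes was -0.18. With no scaling beyond library size the median of all tested genes moved to 0.14 and the calls from 844 lower and 987 higher to 535 lower and 1938 higher. Aldoa was then still called lower, Slc2a3 was not, and Hk1 was called higher. CPM are shares of a library, so lower expression here is a lower share, and in sorted bulk samples fewer expressing cells and less RNA per cell cannot be told apart.

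**Figure D1:**
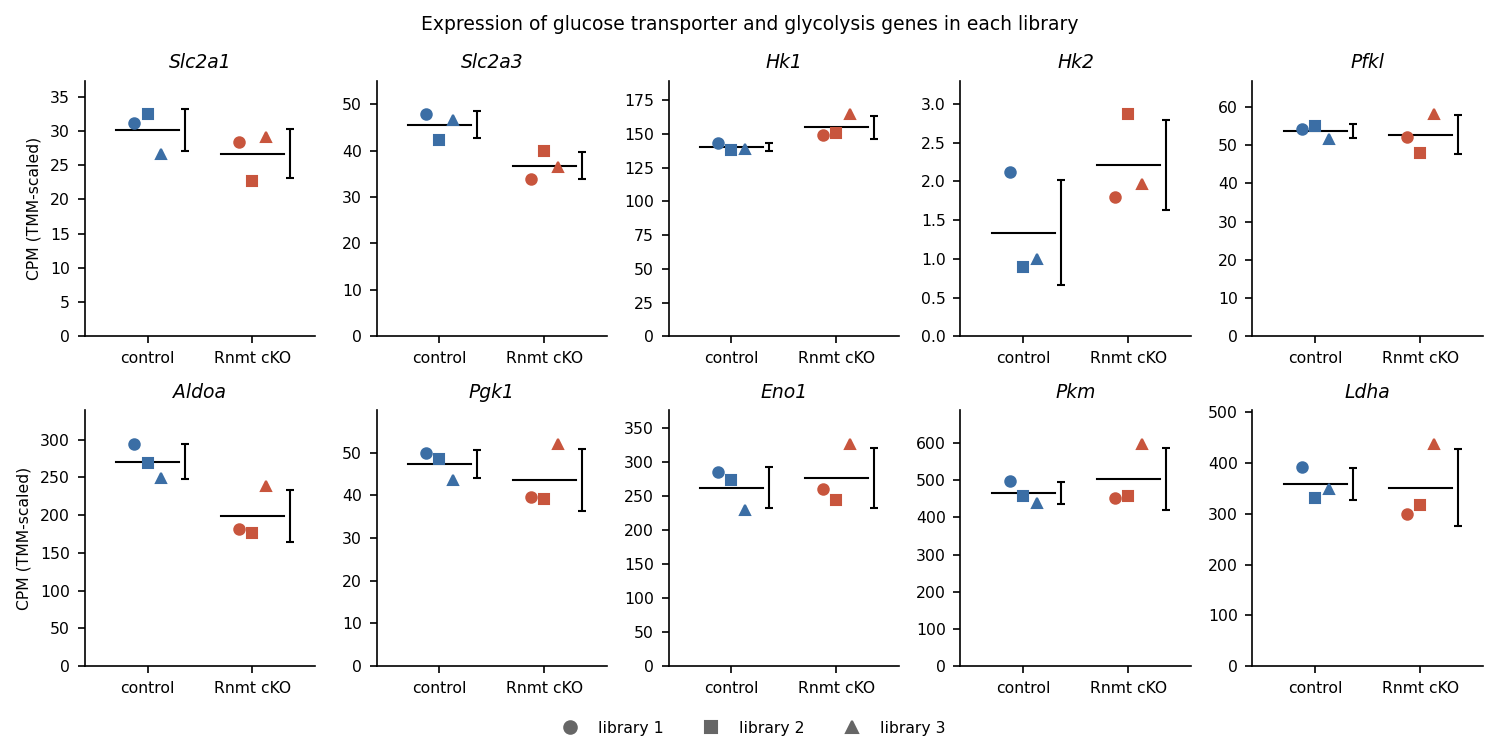
TMM-scaled CPM of the 10 genes in each library, with 1 panel per gene and every axis starting at 0. Blue marks are controls and red marks Rnmt cKO, marker shapes give the library number, lines are means and bars ± SD (n = 3). The groups are apart for Slc2a3 and Aldoa (cKO lower) and Hk1 (cKO higher), and the triangle of Rnmt cKO 3 lies highest in Hk1, Pfkl, Pgk1, Eno1, Pkm and Ldha.

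Of the glucose transporters, Slc2a3, which encodes the high-affinity neuronal-type transporter GLUT3, had 47.8, 42.3 and 46.6 CPM in controls 1, 2 and 3 and 33.9, 39.8 and 36.5 CPM in Rnmt cKO 1, 2 and 3. Every cKO value was below every control value, although the nearest pair, control 2 and Rnmt cKO 2, differed by less than the SD of either group. The means were 45.6 ± 2.90 and 36.7 ± 2.96 CPM (SD, n = 3), with a log2 fold change of -0.31 ± 0.09 (SE) and an adjusted p of 0.0454 in the exact test. This call lies close to the threshold. It was kept in 5 of 15 alternative fits, with the log2 fold change between -0.38 and -0.18. Leaving out any of control 1, control 2, control 3 and Rnmt cKO 1 ended the call (adjusted p = 0.209, 0.0667, 0.161 and 0.222 in that order, exact test). Slc2a1, which encodes the basal transporter GLUT1, had 31.2, 32.4 and 26.6 CPM in the controls and 28.3, 22.6 and 29.1 CPM in the Rnmt cKO libraries. Its groups overlapped, with Rnmt cKO 2 below all others, and it was not called (log2 fold change -0.18 ± 0.14 (SE), adjusted p = 0.496). The lower mean of Slc2a1 therefore did not exceed the spread between libraries. The overlapping genes Gm4482 in Slc2a3 and Mir1957a in Slc2a1, annotated on the same strand, held 11 and 27 counts over all 6 libraries, against 2453 and 1692 for the transporters.

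The first enzyme of the pathway is hexokinase. Hk1, the hexokinase bound to mitochondria in most resting tissues, had 143, 138 and 139 CPM in the controls and 149, 150.3 and 165 CPM in the Rnmt cKO libraries. All cKO values were above all control values, by a small margin. The difference was not called (log2 fold change 0.14 ± 0.05 (SE), adjusted p = 0.341), and it passed the threshold in 2 of 15 alternatives, with no scaling beyond library size and with the share of fragments in no gene as a covariate. Hk2, the inducible hexokinase of activated and cycling cells, was near the limit of detection, with counts of 18, 9 and 9 (control) against 17, 34 and 22 (Rnmt cKO). These correspond to 2.12, 0.898 and 0.994 CPM and 1.80, 2.87 and 1.97 CPM. Control 1 was above Rnmt cKO 1, so the groups overlapped, and the difference was not called (log2 fold change 0.75 ± 0.39 (SE), adjusted p = 0.244). Hk2 passed the filter through the 3 cKO libraries and control 1.

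Phosphofructokinase and aldolase follow. Pfkl, the liver-type subunit of the enzyme of the committed step, had 54.1, 55.1 and 51.6 CPM in the controls and 52.1, 47.8 and 58.1 CPM in the Rnmt cKO libraries, with the 3 controls inside the range of the cKO values (log2 fold change -0.03 ± 0.09 (SE), adjusted p = 0.943). Aldoa encodes the aldolase that cleaves fructose 1,6-bisphosphate in most tissues. It had 295, 269 and 249 CPM in the controls and 182, 176 and 239 CPM in the Rnmt cKO libraries. Rnmt cKO 1 and 2 lay far below the controls, whereas Rnmt cKO 3 was only just below control 3, the lowest control. The means were 271 ± 23.0 and 199 ± 34.9 CPM (SD, n = 3), with a log2 fold change of -0.44 ± 0.16 (SE) and an adjusted p of 0.00754 in the exact test. The call was kept in 11 of 15 alternatives, with the log2 fold change between -0.62 and -0.32. Leaving out any of control 1, Rnmt cKO 1 and Rnmt cKO 2 ended the call (adjusted p = 0.0779, 0.0824 and 0.0941 in that order, exact test). Without Rnmt cKO 3 the log2 fold change was -0.62, with an adjusted p of 8.74e-10 in the exact test. On the genome Aldoa spans 126795234 to 126800751 of chromosome 7 and Slc2a3 spans 122727809 to 122801640 of chromosome 6 (mm10, both on the minus strand).

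Of the 10 genes, the 4 whose enzymes act after aldolase showed no called difference. Pgk1, the first ATP-yielding enzyme of the pathway, had 50.0, 48.5 and 43.5 CPM in the controls and 39.5, 39.1 and 52.1 CPM in the Rnmt cKO libraries (log2 fold change -0.12 ± 0.15 (SE), adjusted p = 0.666). Rnmt cKO 1 and 2 were below the controls and Rnmt cKO 3 above them. Without Rnmt cKO 3 Pgk1 was called lower, with a log2 fold change of -0.28 and an adjusted p of 0.0426 in the exact test. Eno1, the ubiquitous enolase, had 286, 273 and 229 CPM and 260.1, 244 and 327 CPM (log2 fold change 0.08 ± 0.16 (SE), adjusted p = 0.806). Control 3 was the lowest library and Rnmt cKO 3 the highest, and the remaining 4 lay between them. Pkm, pyruvate kinase, had 498, 458 and 440.0 CPM and 452, 457 and 598 CPM (log2 fold change 0.11 ± 0.14 (SE), adjusted p = 0.671). Rnmt cKO 1 and 2 lay within the range of the controls and Rnmt cKO 3 well above it. The counts cover the whole gene, so the PKM1 and PKM2 splice forms were not told apart. Ldha, the muscle-type subunit of lactate dehydrogenase, had 393, 332 and 349.7 CPM and 299, 318 and 438 CPM (log2 fold change -0.03 ± 0.19 (SE), adjusted p = 0.960). Here Rnmt cKO 1 and 2 were the lowest of all libraries and Rnmt cKO 3 the highest. Without Rnmt cKO 3 the log2 fold change of Ldha was -0.23 with an adjusted p of 0.0585 in the exact test, which still missed the threshold.

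**Figure D2:**
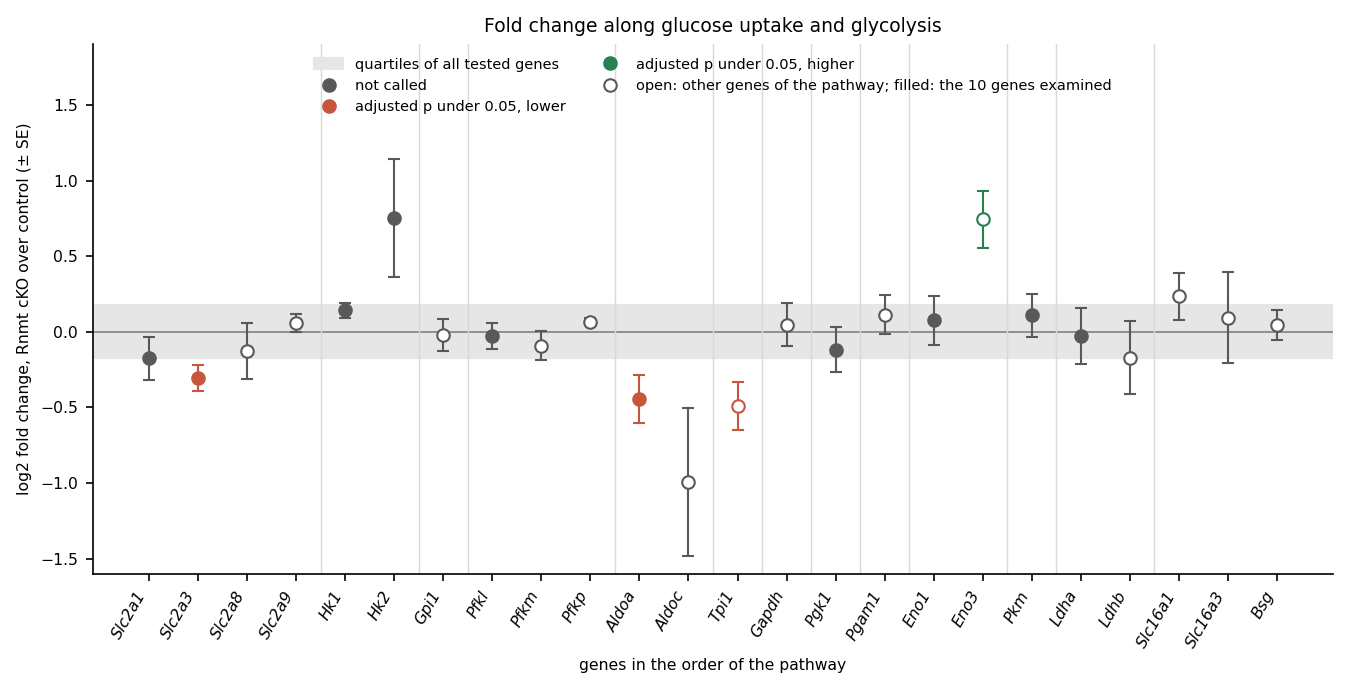
Log2 fold change (Rnmt cKO over control, ± SE) of the tested genes of glucose uptake, glycolysis and lactate export, in the order of the pathway. Filled marks are the 10 genes, open marks other genes, red marks are called lower, green marks called higher, and the grey band runs between the quartiles of all tested genes (-0.17 to 0.17). Slc2a3, Aldoa and Tpi1 are called lower and Eno3 higher.

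Promoter windows of the 10 genes were searched for letters that HIF-1 and MYC recognise. The hypoxia response core (acgtg or gcgtg, the letters bound by HIF-1) and the E-box (cacgtg, bound by MYC with MAX) were sought on both strands of RefSeq windows (GRCm38.p6, the build of the deposited counts), each running from 250 bases before to 50 after a transcript start. Of the 10 genes, 9 had a window, 16 windows in all, and Slc2a3 had none. A hypoxia core lay in 13 of the 16 windows and in 43.8% of all 32851 windows. An E-box lay in 1 of the 16 and in 7.15% of all windows. Among the 76 windows of cytoplasmic ribosomal protein genes, 68.4% held a core and 10.5% an E-box, so a high share of cores was not particular to the 9 genes. Some windows of Aldoa and of Eno1 overlap, so the same letters can count more than once. The 250 bases before 1 start each are shown for Aldoa and Ldha, with every match in capitals. Aldoa had the smallest p among the 10 in the exact test, and Ldha was the only one of the 9 with an E-box in a window. Their other windows can differ. The Aldoa window at chr7:126800398-126800697 held 0 cores, and the Ldha window at chr7:46846832-46847131 held 2 cores and 0 E-boxes. Each E-box also holds a hypoxia core on either strand. The Aldoa stretch (chr7:126799179-126799428, minus strand) had 1 core and no E-box. The Ldha stretch (chr7:46845554-46845803, plus strand) had 5 cores, 4 of them within its 2 E-boxes. Among all windows of 250 bases, 38.6% held a core and 6.02% an E-box, 2.58% held 4 or more cores and 0.429% 2 or more E-boxes. Many ribosomal protein mRNAs start with a C followed by pyrimidines, the terminal oligopyrimidine (TOP) motif. A C followed by 4 pyrimidines stood at the RefSeq start of 0 of the 16 windows of the 9 genes, of 18.4% of the 76 windows of cytoplasmic ribosomal protein genes and of 2.51% of all windows. Most windows of ribosomal protein genes thus lacked it too, and 16 windows are too few to tell 0 from the 2.51% of all windows. The starts used in these cells were not measured. Such matches describe letters and do not show binding.
Aldoa: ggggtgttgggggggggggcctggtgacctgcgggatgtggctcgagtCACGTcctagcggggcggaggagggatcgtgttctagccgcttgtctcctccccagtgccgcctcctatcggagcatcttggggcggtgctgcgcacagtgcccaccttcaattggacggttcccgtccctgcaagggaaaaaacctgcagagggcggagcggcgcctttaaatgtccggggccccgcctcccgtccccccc
Ldha: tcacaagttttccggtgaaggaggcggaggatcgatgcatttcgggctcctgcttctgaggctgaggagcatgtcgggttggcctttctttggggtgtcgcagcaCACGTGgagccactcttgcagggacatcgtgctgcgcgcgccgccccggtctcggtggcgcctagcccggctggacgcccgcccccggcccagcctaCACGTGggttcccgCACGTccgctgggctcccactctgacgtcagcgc

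Rnmt cKO 3, the highest library for 6 of the genes, also had the lowest share of fragments in no gene. With that share as a covariate, the quasi-likelihood test called 2 of the genes lower, Aldoa and Slc2a3, and 1 higher, Hk1. Beyond that fit the part of the share in the results was not tested. The 6 libraries were split by that share alone into a set of 3 with 31.8 to 39.7% (controls 1 and 2, Rnmt cKO 3) and a set of 3 with 46.1 to 47.9% (control 3, Rnmt cKO 1 and 2), and the groups were compared within each set, as a description. For Aldoa, Slc2a3 and Hk1 the direction was fixed beforehand, since their groups did not overlap over the 6 libraries, and only the sizes can differ. In the low-share set Rnmt cKO 3 is the only cKO library. For Pfkl, Pgk1, Eno1, Pkm and Ldha it was the highest of all libraries, so their direction in that set was fixed as well. These directions restate values given above. Aldoa was lower in cKO in both sets, by a log2 ratio of -0.24 and -0.48. Slc2a3 was lower by much the same in both, with -0.31 and -0.34. Hk1 was higher in both, with 0.22 and 0.11, as were Eno1 with 0.23 and 0.14 and Pkm with 0.32 and 0.05. The directions differed for Ldha, with 0.27 in the low-share set and -0.18 in the high-share set, for Pgk1, with 0.08 and -0.15, and for Pfkl, with 0.09 and -0.05. Slc2a1 had -0.13 and -0.06, and Hk2 0.39 and 1.23. Each set has a single library of one group, so no test was made.

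**Figure D3:**
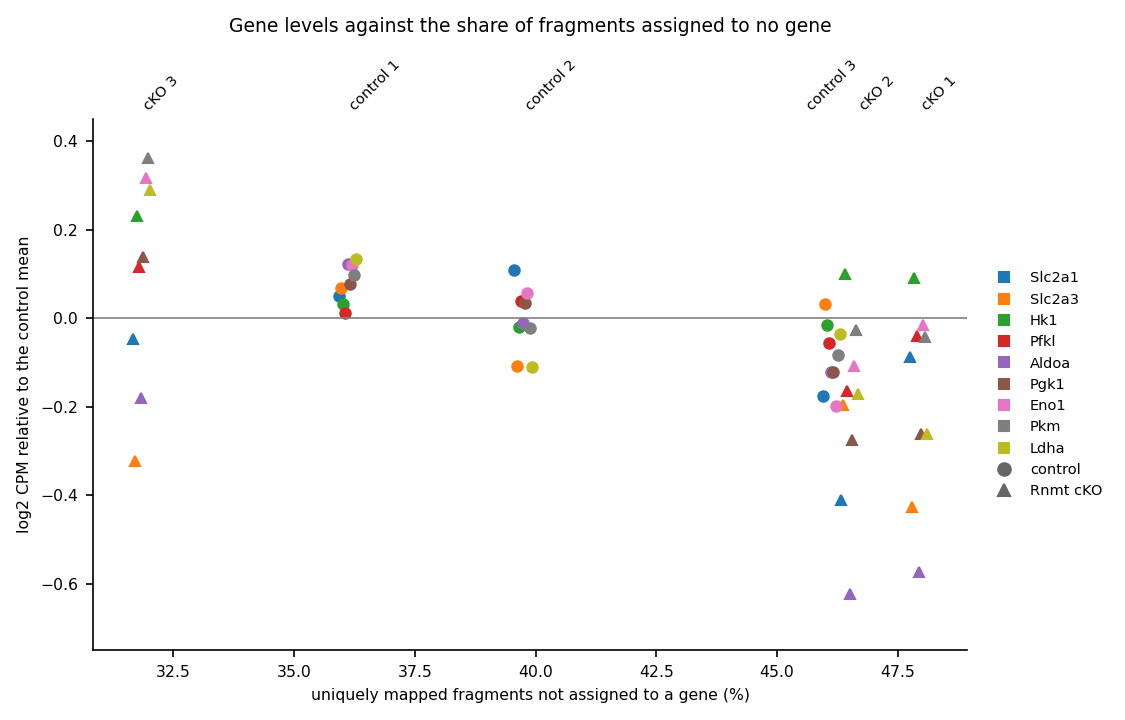
Log2 CPM relative to the control mean (vertical axis) against the percentage of uniquely mapped fragments assigned to no gene (horizontal axis), for 9 of the 10 genes in each library. Circles are controls, triangles Rnmt cKO, and colours give the gene, with a small sideways shift to keep marks apart; Hk2 is left out for its low counts. At the left, Rnmt cKO 3 lies above the control mean for Pkm (0.36), Eno1 (0.32) and Ldha (0.29) and below it for Aldoa (-0.18) and Slc2a3 (-0.32).

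Levels were compared between genes per kilobase of exon, as RPKM. In the controls the order from the top was Ldha, Pkm, Aldoa, Eno1, Hk1, Pgk1, Pfkl, Slc2a3, Slc2a1 and Hk2. Ldha had 189 ± 16.5 and Pkm 179 ± 11.5 RPKM (SD, n = 3), and these 2 overlapped and changed places in the Rnmt cKO libraries (186 ± 39.9 and 193 ± 31.9 RPKM). Aldoa had 148 ± 12.6 RPKM in controls, above every control value of Eno1 (103 ± 11.8 RPKM), while in the Rnmt cKO libraries both overlapped at 109 ± 19.1 and 109 ± 17.4 RPKM. Slc2a3 and Slc2a1 were apart in the controls, at 11.5 ± 0.733 and 9.22 ± 0.938 RPKM, and overlapped in the Rnmt cKO libraries. No other neighbours in the order overlapped in either group. Ldha and Pkm were above 98.0% of the tested genes in mean RPKM and Aldoa and Eno1 above 97.2 and 96.4%, whereas the transporters lay near the middle (48.7% for Slc2a1 and 53.6% for Slc2a3) and Hk2 above 1.99%.

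The 10 genes together held 0.154 to 0.164% of gene counts in the controls. In Rnmt cKO 1 and 2 they held 0.160 and 0.161%, and in Rnmt cKO 3 0.192%, with a 95% Wilson interval of 0.190 to 0.195% that covers counting error only. Their CPM summed to 1801, 1651 and 1576 in controls 1 to 3, against 1498, 1498 and 1945 in Rnmt cKO 1 to 3. The means were 1676 ± 115 and 1647 ± 258 CPM (SD, n = 3), a difference well inside the spread. Without TMM scaling the sums averaged 1600.1 and 1709 CPM, so the sign of this difference depends on the scaling.

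Paired isozymes and transporters were compared as shares within each library, which need no scaling between libraries. Slc2a1 made up 44.2, 48.2 and 41.0% of the length-scaled expression of Slc2a1 and Slc2a3 in the controls and 50.3, 40.8 and 49.2% in the Rnmt cKO libraries. Hk1 made up 98.7, 99.4 and 99.4% of Hk1 and Hk2 in the controls and 99.0, 98.4 and 99.0% in the Rnmt cKO libraries. Pfkl made up 31.5, 32.0 and 30.4% of Pfkl and the platelet-type Pfkp in the controls and 30.1, 27.4 and 32.3% in the Rnmt cKO libraries. Pfkp was thus the larger of the 2 in every library. Ldha made up 91.5, 90.0 and 93.4% of Ldha and the heart-type Ldhb in the controls and 92.1, 92.5 and 92.5% in the Rnmt cKO libraries. The groups overlapped in all 4 pairs. The differences in means (Rnmt cKO minus control) were 2.36, -0.42, -1.36 and 0.73 percentage points in the order given, with p of 0.6, 0.3, 0.6 and 0.6 in exact two-sided permutation tests and 0.6 for each after Benjamini-Hochberg adjustment over the 4. With 3 libraries against 3 these tests cannot go below 0.1.

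**Figure D4:**
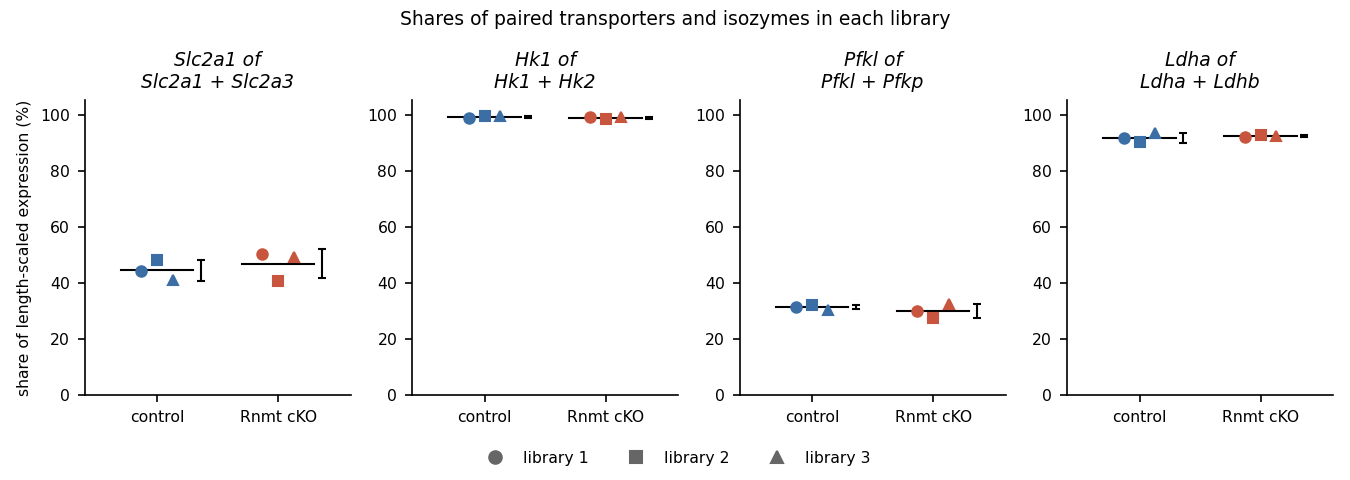
Share (%) of the first gene in the length-scaled expression of each pair, by library, on axes that start at 0. Blue marks are controls, red marks Rnmt cKO, lines are means and bars ± SD (n = 3). The shares of the groups overlap in all 4 panels, with Hk1 at 99.2% and Ldha at 91.6% in controls.

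Most other glycolytic enzyme genes were not called. Of 20 further glycolytic enzyme genes 9 were tested, 1 was called lower and 1 higher. The exact test called 6.84% of all tested genes lower and 8.0% higher. Tpi1, triose phosphate isomerase, which acts directly after aldolase, had 36.6, 32.0 and 30.2 CPM in the controls and 20.1, 22.4 and 27.6 CPM in the Rnmt cKO libraries (log2 fold change -0.49 ± 0.16 (SE), adjusted p = 0.00854). As for Aldoa, the groups did not overlap and Rnmt cKO 3 was nearest to the controls. The call was kept in 11 of 15 alternatives. Leaving out any of control 1, Rnmt cKO 1 and Rnmt cKO 2 ended the call (adjusted p = 0.0975, 0.0918 and 0.0693 in that order, exact test). Eno3, the muscle-type enolase, had 15.2, 15.4 and 13.9 CPM in the controls and 29.9, 25.3 and 19.4 CPM in the Rnmt cKO libraries (log2 fold change 0.74 ± 0.19 (SE), adjusted p = 3.93e-04), and was called in all 15 alternatives. It remained far below Eno1 per length (9.46 ± 0.503 and 103 ± 11.8 RPKM in controls). Gapdh was the most abundant of these 9 per length, with 186, 160.4 and 156 CPM in the controls and 155, 161 and 202 CPM in the Rnmt cKO libraries, overlapping groups and no call (log2 fold change 0.05 ± 0.14 (SE), adjusted p = 0.882). The median log2 fold change of the 9 was -0.02.

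Neighbouring pathways gave few calls, beside 6.84% lower and 8.0% higher of all tested genes in the exact test. Of 2 tested further SLC2A genes, 3 genes of lactate transport, 5 of fructose 2,6-bisphosphate control, 12 of pyruvate entry to mitochondria and 7 of the pentose phosphate pathway, the exact test called none in either direction. With unadjusted p below 0.05 Pfkfb3 and Pdha1 were lower and none higher, and the quasi-likelihood test and DESeq2 called none of these genes. Median log2 fold changes were -0.03, 0.09, -0.16, 0.11 and -0.01 in the order given. The most abundant per length were Slc2a9, a urate and hexose carrier, at 5.35 ± 0.215 RPKM (SD, n = 3) in controls, Bsg, the chaperone of the lactate transporters, at 35.9 ± 2.78, Pfkfb3, which makes the activator of phosphofructokinase, at 8.03 ± 0.207, Pdk1, which inhibits pyruvate dehydrogenase, at 87.8 ± 5.41, and Taldo1, transaldolase, at 79.7 ± 6.17. None of these 5 was called, and Pfkfb3 alone had groups that did not overlap, with 44.4, 43.1 and 45.4 CPM in the controls and 39.0, 38.0 and 36.5 CPM in the Rnmt cKO libraries (log2 fold change -0.23 ± 0.04 (SE), adjusted p = 0.131). Without Rnmt cKO 3 the exact test called Taldo1 lower (log2 fold change -0.26, adjusted p = 0.0383) and also Pdha1, a pyruvate dehydrogenase subunit (log2 fold change -0.39, adjusted p = 4.92e-05). Of 10 tested genes of glycogen metabolism and gluconeogenesis, 1 was lower, Gbe1, the glycogen branching enzyme, with 25.0, 22.6 and 29.4 CPM in the controls and 18.2, 18.1 and 18.2 CPM in the Rnmt cKO libraries (log2 fold change -0.50 ± 0.11 (SE), adjusted p = 0.00507). Leaving out control 3 ended the call (adjusted p = 0.0662, exact test). None of the 10 was higher in the exact test, the quasi-likelihood test or DESeq2, while Pygm, muscle glycogen phosphorylase, was higher with unadjusted p below 0.05, and in the exact test without Rnmt cKO 3 (log2 fold change 0.57, adjusted p = 0.0284). Pygb, brain-type glycogen phosphorylase and the most abundant of the 10 per length, had 24.3 ± 1.69 RPKM in controls and was not called (log2 fold change 0.04 ± 0.12 (SE), adjusted p = 0.896).

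Regulators of glycolytic genes gave calls in both directions. Of 17 tested, 1 was called lower and 3 higher, with a median log2 fold change of 0.02. Of all tested genes, 6.84% were called lower and 8.0% higher, so single calls in a list this size are common. Hif1a, the oxygen-regulated subunit of HIF-1, had 162, 163 and 156 CPM in the controls and 137, 166 and 167 CPM in the Rnmt cKO libraries, and Myc had 73.7, 78.3 and 72.1 and 74.3, 78.0 and 90.6 CPM. Neither was called (log2 fold changes -0.03 ± 0.10 and 0.12 ± 0.09 (SE), exact test adjusted p = 0.922 and 0.555). Epas1, which encodes HIF-2α, had 16.0, 15.2 and 12.5 CPM in the controls and 8.88, 7.17 and 10.7 CPM in the Rnmt cKO libraries (log2 fold change -0.71 ± 0.19 (SE), adjusted p = 0.00448). Leaving out any of control 1, control 2 and Rnmt cKO 2 ended the call (adjusted p = 0.0552, 0.0545 and 0.0656 in that order, exact test). Vhl, the ubiquitin ligase component that removes HIF subunits in oxygen, had 18.9, 18.7 and 20.5 CPM and 24.9, 24.4 and 28.4 CPM (log2 fold change 0.42 ± 0.08 (SE), adjusted p = 0.0131). Leaving out any of control 1, control 2 and Rnmt cKO 3 ended the call (adjusted p = 0.0864, 0.119 and 0.0519 in that order, exact test). Irf4, a factor induced by T cell receptor signals, had 23.6, 22.6 and 22.5 CPM and 27.3, 33.2 and 33.2 CPM (log2 fold change 0.45 ± 0.10 (SE), adjusted p = 0.00586). Leaving out either control 2 or Rnmt cKO 2 ended the call (adjusted p = 0.0641 and 0.0784 in that order, exact test). Klf2, a factor of T cell quiescence, had 289, 295 and 248 CPM and 413, 369.8 and 454 CPM (log2 fold change 0.57 ± 0.12 (SE), adjusted p = 1.97e-05) and was called in all 15 alternatives. The groups of these 4 genes did not overlap, as was so for 14.9% (cKO lower) and 16.6% (cKO higher) of all tested genes. Txnip, which limits glucose uptake and was the most abundant of the list per length, had 493, 543 and 438 CPM and 561, 586 and 574 CPM, with groups that did not overlap and no call (log2 fold change 0.22 ± 0.09 (SE), adjusted p = 0.171).

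Targets of HIF-1 outside glycolysis gave 3 called higher and none lower among 10 tested. For comparison, 8.0% of all tested genes were called higher and 6.84% lower. The log2 fold change had its median at 0.15 in this list and at 0.01 among all tested genes. Ldha and Aldoa, whose promoter letters are shown above, are known targets of HIF-1 inside the pathway. Aldoa was called lower and Ldha was not called (adjusted p = 0.00754 and 0.960, exact test). They are named for the letters shown, and the other glycolysis and transporter genes were not sorted into HIF-1 targets. None of the 10 targets was lower with unadjusted p below 0.05, and the quasi-likelihood test and DESeq2 each called only Ndrg1, higher. Ndrg1, a stress-induced gene, had 13.9, 15.3 and 11.5 CPM in the controls and 21.5, 24.0 and 27.2 CPM in the Rnmt cKO libraries (log2 fold change 0.84 ± 0.15 (SE), adjusted p = 5.14e-06). P4ha2 and P4ha1, subunits of collagen prolyl hydroxylase, had 1.88, 0.898 and 1.88 and 50.7, 52.7 and 54.6 CPM in the controls and 3.38, 3.97 and 2.78 and 62.0, 60.1 and 71.2 CPM in the Rnmt cKO libraries. Their log2 fold changes were 1.13 ± 0.34 and 0.29 ± 0.08 (SE), with exact test adjusted p of 0.0119 and 0.0431, and P4ha1 was kept in 3 of 15 alternatives. For P4ha2, leaving out control 2 or Rnmt cKO 2 ended the call (adjusted p = 0.158 and 0.106, exact test), and for P4ha1 leaving out any library did (adjusted p between 0.0627 and 0.206). Ddit4, an inhibitor of mTORC1 and the most abundant of the list per length, was not called (log2 fold change 0.25 ± 0.19 (SE), adjusted p = 0.301).

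**Figure D5:**
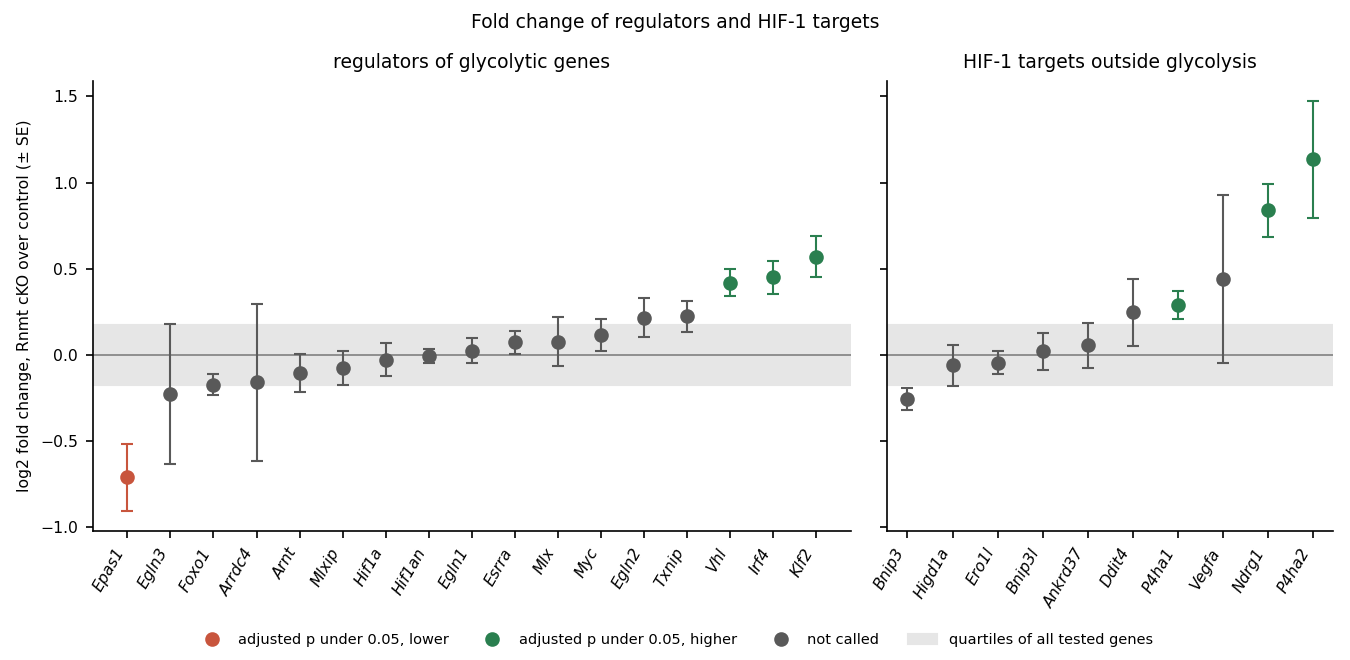
Log2 fold change (Rnmt cKO over control, ± SE) of 17 tested regulators of glycolytic genes and 10 tested HIF-1 targets outside glycolysis, in order of the value. Red marks are called lower and green marks higher, and the grey band runs between the quartiles of all tested genes. Epas1 (-0.71) lies lowest, and Klf2 (0.57), Ndrg1 (0.84) and P4ha2 (1.13) highest in their lists.

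By Pearson's r of log2 CPM over the 6 libraries, among 9704 genes with a mean of at least 5 CPM, the second and the third gene most like Aldoa were Rpl21 and Rpl13, each with an r of 0.999. All share the 6 libraries and their scaling, and 546 genes had an r over 0.9 with Aldoa, so this is a description. Rpl21 and Rpl13, which encode ribosomal proteins of the large subunit, had log2 fold changes of -0.49 and -0.67. For Slc2a3 the nearest were Xylt1, Pla2g15 and Abhd15, with r of 0.997, 0.992 and 0.984 and log2 fold changes of -0.53, -0.26 and -0.53.

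Reads shared with near-identical copies could touch the values of 4 of the 10 genes. Transcripts of Pgk1, Eno1, Pkm and Ldha matched 2, 3, 1 and 1 other annotated genes over at least 200 bases at 95% identity or more, most of them processed pseudogenes. Those copies held 1, 18, 52 and 0 counts over all 6 libraries, at most 0.178% of the counts of the enzyme gene. No such copy was found for the other 6 genes. Only uniquely mapped fragments were counted, and fragments that map equally well to a gene and its copy were dropped, so the levels of these 4 genes may be underestimated in every library.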

How the data were processed

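The authors aligned the paired-end reads of each library to mm10 with STAR 2.5.2b, using GENCODE vM12 (basic). They deposited raw, unnormalized gene counts of uniquely mapped fragments. Of the 3 count columns, the sense-strand column was used, since dividing it by 1 constant per library returned the normalised signal values of the authors' deposited comparison table for 100% of its genes, to within 0.01%. That signal served this check only, and the fold changes and p-values in the same table were not used. Counts were scaled with TMM factors and compared by the exact test of edgeR 4.0.16 under R 4.3.3, using tagwise dispersions, over all 12336 genes that passed the filter. P-values were Benjamini-Hochberg adjusted and called under 0.05. CPM are TMM-scaled, RPKM use GENCODE vM21 exon lengths, and SE of log2 fold changes come from log2 CPM with a prior count of 2. DESeq2 1.42.0, edgeR's quasi-likelihood test, other scalings, filters and strands, a replicate block, a covariate and leaving out each library were alternatives. Shares were compared with exact permutation tests (scipy 1.17.1). Pairs of replicates differed beyond sampling noise (chi-square over its degrees of freedom 3.64 to 22.9), and each library counted as 1 sample.

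The genes and lists were chosen with earlier results of these data known. Named are the 10 genes, other pathway genes past the threshold (at most 5 a list), the most abundant tested gene of each list per length, Rnmt, and the 3 genes most like each of the 2 genes with the smallest p, of which 1 is not reported here. Hif1a, Myc, Pdha1, Pygm, the cell type markers and the genes overlapping Slc2a1 and Slc2a3 are named beside these, after their values were seen. The code was tested on simulated data with known changes.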

Additional observations from a re-analysis of the deposited data

How the results depend on the processing

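Of the 10 genes, 2 were called lower and none higher. The lower count was 1 with the quasi-likelihood test, DESeq2, no scaling beyond library size, no filter on low counts and counts of either strand, and 0 to 3 when 1 library was left out. The higher count was 1 with no scaling and 1 with the share of fragments in no gene as a covariate, Hk1 in both. Other pathway genes gave 3 lower and 7 higher, and all tested genes 844 lower and 987 higher (6.84% and 8.0%). The higher count of the other pathway genes was 4 with DESeq2 and 13 with no scaling, and the covariate gave 7 lower and 13 higher. Over all tested genes the higher count was 702 with DESeq2 and 1938 with no scaling, and the covariate gave 1466 lower and 1696 higher. For the other pathway genes, leaving out 1 library gave 1 to 5 lower and 3 to 6 higher. The replicate numbers do not pair the libraries, as deviations of same-numbered libraries correlated at -0.21, -0.02 and -0.35 and 0 of 6 libraries correlated best with its own number. The quasi-likelihood test with the replicate block called 0 of the 10 genes lower, 0 other pathway genes lower and 3 higher, and 276 lower and 431 higher of all genes.

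None of the genes that reversed was called with all 6 libraries. With no scaling the log2 fold change was 0.095 for Pfkl, 0.0012 for Pgk1 and 0.093 for Ldha, all below the median of all genes in that fit. With 1 library left out it lay between -0.12 and 0.036 for Pfkl, -0.079 and 0.16 for Eno1, -0.052 and 0.18 for Pkm and -0.23 and 0.078 for Ldha. The Ldha share then differed by -0.070 to 1.58 points. The cause was not tested. Hk2 was not tested under the filter on all 6 libraries. Its counts were between 9 and 34.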
